A study of Mus musculus with 25 samples.

Results

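Cells without miR-150 were compared with cells that carry it. The comparison takes all 25 libraries of the series, chosen by genotype alone: the 8 knock-out libraries form the absent group, and the 9 wild-type and 8 knock-in libraries form the present group of 17. RNA came from CD4 T cells sorted from mice of strain C57BL/6NTac, either naive or taken on day 7 of experimental autoimmune encephalomyelitis (EAE), in which mice immunized against myelin develop a disease that resembles multiple sclerosis. The absent group holds 4 naive and 4 day 7 libraries. The present group holds 4 wild-type and 4 knock-in naive libraries, and 5 wild-type and 4 knock-in day 7 libraries. The effect of absence was fitted with stage as a covariate, so each value below is the average over both stages. The design of either altered allele, and the cells in which it acts, are not stated in the sources used here. Nothing in the labels ties libraries to separate mice, so p-values measure the spread between these libraries, which may be technical.

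Mature, resting lymphocytes hold much miR-150, a microRNA that they lose when activated. A microRNA guides a silencing complex to messengers that pair with its seed, bases 2 to 8 of its mature strand, and lowers their stability and translation. Myb, a transcription factor of lymphoid progenitors, is its best known target. The Mir150 hairpin gives 2 mature strands, miR-150-5p and miR-150-3p. The RefSeq entry of the 3p strand (GRCm38.p6, chr7:45121798-45121819, plus strand) is shown because its seed, in capitals, was searched for in messengers below. No sequence entry was at hand for the 5p strand, so the search does not cover targeting by that strand.

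miR-150-3p: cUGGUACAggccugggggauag

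Total counts ran from 6024043 to 49489134 per library, from 9800746 to 49489134 in the absent and from 6024043 to 45739082 in the present group. Among naive libraries the knock-out held 13917799 to 43640843 counts, all above the 6024043 to 9351180 of wild-type, while knock-in ran from 6454287 to 45739082. The share of counts in ribosomal RNA genes and their like was 21.9% to 32.4% in absent and 20.5% to 28.5% in present libraries. Knock-out day 7 replicate 3 stood apart: it was the deepest library, had the highest ribosomal RNA share, and had the lowest quality weight in limma (0.154). Results that rest on it are given with and without it. Quality weights were also lower in the absent group as a whole, with a median of 0.719 (0.154 to 1.35) against 1.43 (0.375 to 2.46) in the present group. The 8 markers listed for CD4 T cells were Cd4, Cd3d, Cd3e, Cd3g, Trac, Cd28, Cd5 and Cd2, of which all but Cd4 mark T cells at large. They summed to 2213 to 2438 CPM (counts scaled to the same library size) in absent and 2087 to 2284 in present libraries. Markers of B cells (19 of 21 tested) summed to 145 to 255 and 156 to 439 CPM, and those of myeloid cells (10 of 20 tested) to 20.3 to 34.7 and 15.9 to 27.1 CPM. Ly6d and Vpreb3 of the B cell list, and Adgre1, Cd14, Clec9a, Csf1r, Itgax, Ly6g, S100a8, Siglech, Spi1 and Tyrobp of the myeloid list, had too few counts to be tested.

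Mir150 itself checks the labels. Mir150 (ENSMUSG00000065495, chromosome 7, 45121757 to 45121821, plus strand, mm10) had 0 counts in each of the 8 absent libraries. It had 105 to 743 counts in the 17 present libraries, or 16.6 ± 5.76 CPM (SD, n = 17), with a lowest, median and highest level of 9.08, 14.4 and 29.2 CPM. No library lay on the wrong side of its label. With a limit of 3 counts over the absent group, which covers counting error only, the gene was at least 1153-fold lower (adjusted p = 2.08e-13, edgeR). These counts read RNA at the gene, and the mature strands were not measured.

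Absence of miR-150 went with small changes in few genes. edgeR's quasi-likelihood test called 239 of 14703 genes at an adjusted p under 0.05 (1.63%), of which 132 were higher (0.898%) and 107 lower (0.728%) without miR-150. The median change was 1.28-fold among the higher and 1.19-fold among the lower genes. Only 24 of the higher and 5 of the lower genes moved by over 2-fold. The median of all tested genes was -0.00059 on the log2 scale. Within each stage, the absent libraries lay all above or all below the present ones in 9 genes (0.0612% of those tested), all of them called. They included Nfe2l2, Dglucy, Slc4a7, Mtss1 and Itgb1 above, and Sat1, Pvr and Mir150 below; Nfe2l2, Dglucy, Slc4a7, Mtss1, Sat1 and Pvr were chosen after their values were seen. The number of called genes was 145 without knock-out day 7 replicate 3, 107 (39 higher, 68 lower) when sets of 4 consecutive library numbers were added as a block, 15 (11 higher, 4 lower) when wild-type alone stood for the present group, and 179 (89 higher, 90 lower) when knock-in alone did.

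Among effector and memory T cell genes, 5 of the 19 tested were higher without miR-150: Itgb1, Ahnak, Lgals1, S100a10 and Anxa2. Itgb1, the integrin beta 1 chain that pairs with alpha chains to bind fibronectin, collagen and VCAM-1, had a lowest, median and highest level of 68.8, 85.7 and 149 CPM in the 8 absent libraries. In the 17 present libraries these were 40.4, 52.6 and 85.3 CPM. The absent libraries lay above the present ones within naive cells and within day 7 cells, although the groups overlapped across stages. Itgb1 rose by 0.69 on the log2 scale (1.61-fold, SE 0.10, adjusted p = 0.000248). The naive means were 75.9 ± 6.71 CPM in knock-out (SD, n = 4), 55.3 ± 4.11 in wild-type (SD, n = 4) and 46.2 ± 4.58 in knock-in cells (SD, n = 4). At day 7 they were 104 ± 29.8 in knock-out (SD, n = 4), 60.1 ± 10.4 in wild-type (SD, n = 5) and 60.9 ± 19.8 in knock-in cells (SD, n = 4). Its level was highest in knock-out day 7 replicate 2, and without that library its log2 fold change was 0.58, the lowest over the settings tried.

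Ahnak, a very large scaffold protein under the plasma membrane, showed a change of like size. Its lowest, median and highest levels were 152, 256 and 332 CPM in absent and 96.9, 162 and 217.3 CPM in present libraries. The groups were apart in naive cells and overlapped at day 7. Ahnak rose by 0.68 (1.60-fold, SE 0.10, adjusted p = 0.000278). S100a10 and Anxa2, whose proteins bind each other and Ahnak at the membrane, rose as well: S100a10 by 0.34 (59.5 against 46.9 CPM, SE 0.07, adjusted p = 0.00978) and Anxa2 by 1.08 (8.51 against 4.003 CPM, SE 0.25, adjusted p = 0.0209). The Anxa2 call was lost without knock-out day 7 replicate 2, where the log2 fold change was 0.85. Lgals1, a galectin of activated T cells, rose by 0.57 (21.9 ± 4.10 CPM, SD, n = 8, against 15.3 ± 5.10, SD, n = 17; SE 0.11, adjusted p = 0.00525). Its change was 0.84 in naive and 0.31 at day 7, and the difference between stages had an unadjusted p of 0.016 and passed no adjusted threshold.

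Of the 19 tested genes on the effector and memory list, 5 were higher and 0 lower (26.3%, against 1.63% of all genes), 17 had a positive log2 fold change, and the median was 0.12 against -0.00059 over all genes. This list, like every other list used below, was written with earlier results of these data known. The shares of called members are therefore not independent evidence. Members that did not pass, chosen here after their values were seen, included the classical memory marker Cd44 (46.6 against 46.4 CPM, log2 fold change 0.01, adjusted p = 0.976) and the intermediate filament gene Vim (280 against 258 CPM, log2 fold change 0.12, adjusted p = 0.315). With wild-type alone as the present group 2 of the 19 remained called, and with the block on library numbers 3. On the separate list of integrins and adhesion genes, Itgb1 was the single called member of 15. Itga5, which pairs with Itgb1 as the fibronectin receptor and was chosen after its values were seen, rose by 0.59 (8.70 against 5.89 CPM, SE 0.14, adjusted p = 0.0276). The Itga5 call was lost without knock-out day 7 replicate 1, 3 or 4 or knock-out naive replicate 3, with log2 fold changes of 0.51 to 0.64 over single libraries left out. Zyx, a focal adhesion protein also chosen after its values were seen, rose by 0.30 (89.9 against 72.9 CPM, SE 0.06, adjusted p = 0.00492).

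**Figure D1:**
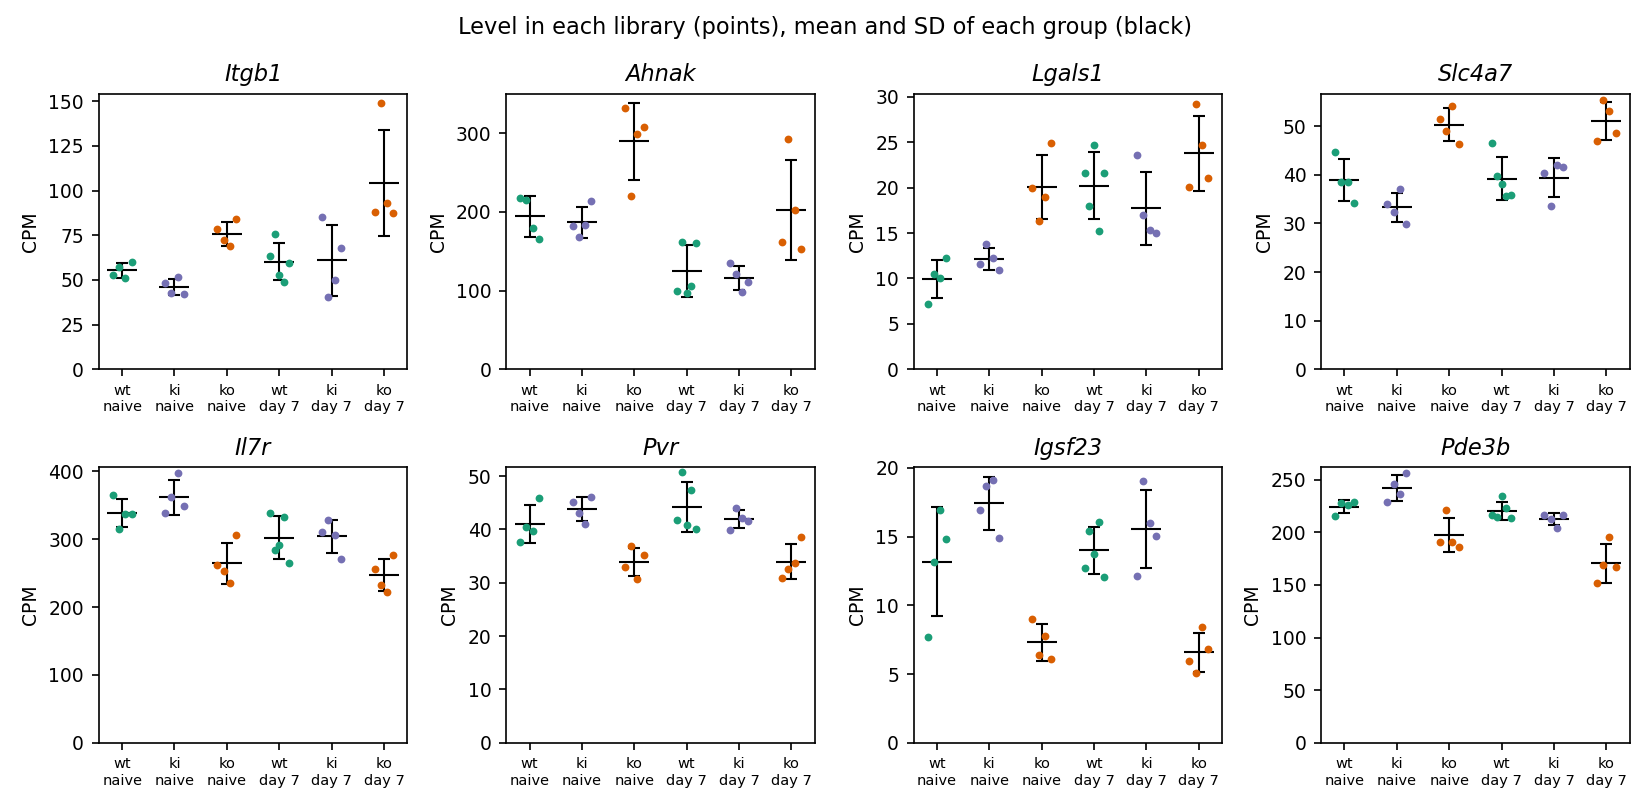
Each panel shows 1 gene, with its level in CPM in every library (points) and the mean with SD (black) of the 6 groups: wild-type (wt, green), knock-in (ki, purple) and knock-out (ko, orange), naive and day 7. The knock-out group has the highest mean at both stages for Itgb1, Ahnak, Lgals1 and Slc4a7, and the lowest for Il7r, Pvr, Igsf23 and Pde3b.

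Other higher genes were signalling and transport genes. Cdc25b, a phosphatase that activates cyclin-dependent kinases, had lowest, median and highest levels of 26.3, 34.5 and 50.6 CPM in absent and 13.5, 19.6 and 39.7 CPM in present libraries. It rose by 0.79 (1.73-fold, SE 0.13, adjusted p = 0.000511), while the 40 genes of the cell cycle list held 0 called members (median 0.12, between -0.05 and 0.18 under the alternatives). Slc4a7, a sodium bicarbonate cotransporter, ran from 46.3 to 55.4 CPM in absent and from 29.9 to 46.6 CPM in present libraries, which barely met across stages. Slc4a7 rose by 0.43 (1.34-fold, SE 0.06, adjusted p = 0.000144). Nfe2l2, the transcription factor of the oxidative stress response, rose by 0.29 (65.5 against 53.2 CPM, SE 0.05, adjusted p = 0.000369), and Dglucy, a mitochondrial D-glutamate cyclase, by 0.43 (28.8 against 21.6 CPM, SE 0.06, adjusted p = 0.000209). Myo1f, an unconventional myosin of leukocytes, rose by 1.04 (14.8 ± 4.96 against 7.28 ± 2.30 CPM, SD, n = 8 and 17; SE 0.19, adjusted p = 0.00218). Ccdc141 rose by 0.93 (adjusted p = 0.00217) and the septin gene Sept8 by 0.84 (adjusted p = 0.00664).

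Several abundant surface and signalling genes of T cells rose by small amounts, and all genes of this paragraph were chosen after their values were seen. Dpp4, the peptidase CD26 that costimulates T cells, had lowest, median and highest levels of 84.2, 96.4 and 104 CPM in absent and 56.9, 75.5 and 92.4 CPM in present libraries, and rose by 0.33 (SE 0.06, adjusted p = 0.00464). Spn, the sialophorin CD43, rose by 0.22 (612 ± 56.1 CPM, SD, n = 8, against 525.7 ± 30.9, SD, n = 17; SE 0.04, adjusted p = 0.0047), and Rasgrp2, which activates Rap1 ahead of integrin adhesion, by 0.23 (325 against 277 CPM, SE 0.05, adjusted p = 0.00775). Adgre5, the adhesion receptor CD97 (0.19, adjusted p = 0.00996), and Lsp1, an actin-binding leukocyte protein (0.19, adjusted p = 0.0119), rose as well. Il17ra, a chain of the interleukin-17 receptor, rose by 0.21 (227 against 196 CPM, adjusted p = 0.0139), a call lost without knock-out day 7 replicate 3 (0.19, the lowest over single libraries left out). Aim2, a sensor of cytosolic DNA, rose by 0.36 (27.8 against 21.7 CPM, adjusted p = 0.00868), and E2f2, a transcription factor of the cell cycle, by 0.51 (23.8 against 17.1 CPM, adjusted p = 0.00664). At low levels, Plxdc1 rose by 1.93 (2.74 against 0.773 CPM, adjusted p = 0.00525) and the epithelial adhesion gene Epcam fell by 1.58 (0.498 against 1.39 CPM, adjusted p = 0.0238), the second no longer called without knock-out day 7 replicate 1 or 3. Of these genes, only Il17ra and Epcam lost their call without a single library, and all lost it with wild-type alone as the present group.

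Single transcription factor genes were called higher at low levels. Eomes, a T-box factor of cytotoxic and memory cells, had lowest, median and highest levels of 4.46, 5.46 and 7.35 CPM in absent and 0.863, 3.13 and 5.34 CPM in present libraries, and rose by 0.86 (SE 0.19, adjusted p = 0.0158). Id3, an inhibitor of E proteins (log2 fold change 0.57, SE 0.12, adjusted p = 0.00664), and Gfi1, a repressor in lymphocytes (0.70, SE 0.15, adjusted p = 0.00868), were both higher, and both were chosen after their values were seen. Of 13 tested Th1 genes, 2 were higher and 0 lower (15.4%, against 1.63% of all genes), and the median was 0.34. The 2 were Eomes and Il18rap, the accessory chain of the interleukin-18 receptor (0.97, SE 0.25, adjusted p = 0.0373). The Il18rap call was lost without any 1 of 11 libraries, with log2 fold changes of 0.85 to 1.09. Tbx21, the master factor of Th1 cells, did not pass (1.97 against 1.06 CPM, log2 fold change 0.80, SE 0.39, adjusted p = 0.406); it was chosen after its values were seen. With wild-type alone as the present group, or with the block, 0 Th1 genes were called.

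Markers of cells that a CD4 gate should remove were examined beside these genes. Of 14 tested NK, gamma-delta T and CD8 T cell markers, 2 were called higher and 0 lower (14.3%, against 1.63% of all genes). Among the 14, 13 had a positive log2 fold change, and the median was 0.59 against -0.00059 over all genes. Klrk1, the NKG2D receptor, rose by 1.80 (1.64 ± 1.24 CPM, SD, n = 8, against 0.526 ± 0.542, SD, n = 17; SE 0.36, adjusted p = 0.00492). Klrd1, which pairs with NKG2 receptors, rose by 0.80 (SE 0.19, adjusted p = 0.0214). It was no longer called without knock-out day 7 replicate 3 or naive replicate 4 (lowest log2 fold change 0.67). The more abundant members Ctsw (22.2 against 19.5 CPM), Prf1 (20.2 against 20.7 CPM), Trdc (11 against 10.6 CPM) and Cd8b1 (10.2 against 9.45 CPM), chosen after their values were seen, did not pass. The 14 markers summed to 57.5, 86.1 and 109 CPM (lowest, median and highest) in absent and 57.6, 70.4 and 88.0 CPM in present libraries, and Ncr1 and Klra8 had too few counts to be tested. Within naive cells the sum was 86.5 to 109 CPM in knock-out, 76.0 to 84.8 in wild-type and 71.5 to 88.0 in knock-in libraries. The part of such cells in the levels of Eomes, Il18rap, Klrk1 and Klrd1 was not tested, and in these bulk samples more cells of a type and more RNA per cell cannot be told apart. On the myeloid list 9 of the 10 tested members had a positive log2 fold change, and the median was 0.64. That median lay between 0.50 and 0.95 without single libraries. Itgam, the integrin alpha M chain that NK and some T cells also carry, was the single called member of 10 (0.96, 6.75 against 3.50 CPM, SE 0.17, adjusted p = 0.00171). The part of myeloid cells in these levels was not tested.

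Messengers of the translation machinery were lower without miR-150. Ribosomal protein genes, and genes of some elongation factors, begin with a run of pyrimidines at the transcription start (the TOP element), which lets the mTOR pathway control their translation together. Both lists used here, 77 ribosomal protein genes and 20 other TOP messengers, were chosen after their values were seen, so their direction is not independent evidence. Of the 77 ribosomal protein genes, 41 were lower and 1 higher (54.5% called, against 1.63% of all genes), and 75 had a negative log2 fold change. Their median was -0.20, against -0.00059 over all genes, and it lay between -0.23 and -0.18 under every alternative and every library left out. It was -0.14 in naive and -0.26 in day 7 cells.

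The sequence around the start of 4 called genes is shown, since the element that names this group lies there. Each is 60 bases of the coding strand from RefSeq (GRCm38.p6), 30 on either side of the annotated start, with the longest pyrimidine run in capitals. Rpl4 lies at chr9:64173357-64173416 (plus), Rpl18 at chr7:45718041-45718100 (plus), Rpl13 at chr8:123102320-123102379 (plus) and Eef1a1 at chr9:78481695-78481754 (minus). Counted from the annotated start, the run begins at -18 in Rpl4, -16 in Rpl13, -5 in Eef1a1 and 1 in Rpl18. In Rpl4 and Rpl13 it ends before that start. Whether any marked run is the TOP element of its messenger was not tested.
Rpl4: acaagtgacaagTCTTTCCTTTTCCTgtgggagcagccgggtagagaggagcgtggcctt
Rpl18: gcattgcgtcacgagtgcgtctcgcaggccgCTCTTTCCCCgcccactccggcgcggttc
Rpl13: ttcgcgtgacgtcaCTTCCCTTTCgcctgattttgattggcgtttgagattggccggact
Eef1a1: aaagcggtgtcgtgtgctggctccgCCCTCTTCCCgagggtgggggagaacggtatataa
For a gene with several promoter entries, the entry with the longest run was kept, in all sets alike. An unbroken run of at least 8 C or T letters on the coding strand, within 40 bases centred on the start, was found in 28 of the 57 ribosomal protein genes with a RefSeq promoter entry (49.1%). It was found in 6 of 13 other TOP messengers (46.2%) and in 1784 of 9364 other tested genes (19.1%). Those 1784 genes had a median log2 fold change of 0.0038, so the run by itself did not mark lower genes. The run was present in 15 of 28 called lower and 13 of 29 uncalled ribosomal protein genes. Among the other TOP messengers it was present in 2 of 6 called lower and 4 of 7 uncalled genes.

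Single members changed by small amounts against a narrow spread. Rpl4, of the large subunit, had lowest, median and highest levels of 736, 839 and 969 CPM in absent and 842, 970 and 1116 CPM in present libraries, which overlap; it fell by 0.20 on the log2 scale (SE 0.04, adjusted p = 0.00254). Rpl10a fell by 0.24 (SE 0.04, adjusted p = 0.00157) and Rpl17 by 0.25 (444 against 532 CPM, SE 0.04, adjusted p = 0.00106). Taken as a sum, the 77 genes held 4.73% ± 0.339 of counts outside ribosomal RNA and mitochondrial genes in absent (SD, n = 8) and 5.39% ± 0.499 in present libraries (SD, n = 17). In naive cells that share was 4.25% to 4.84% in knock-out, 4.67% to 5.22% in wild-type and 4.94% to 5.23% in knock-in libraries. At day 7 it was 4.69% to 5.36%, 5.18% to 6.30% and 5.64% to 6.10%. The knock-out share therefore lay wholly below the knock-in share at both stages and overlapped that of wild-type.

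**Figure D2:**
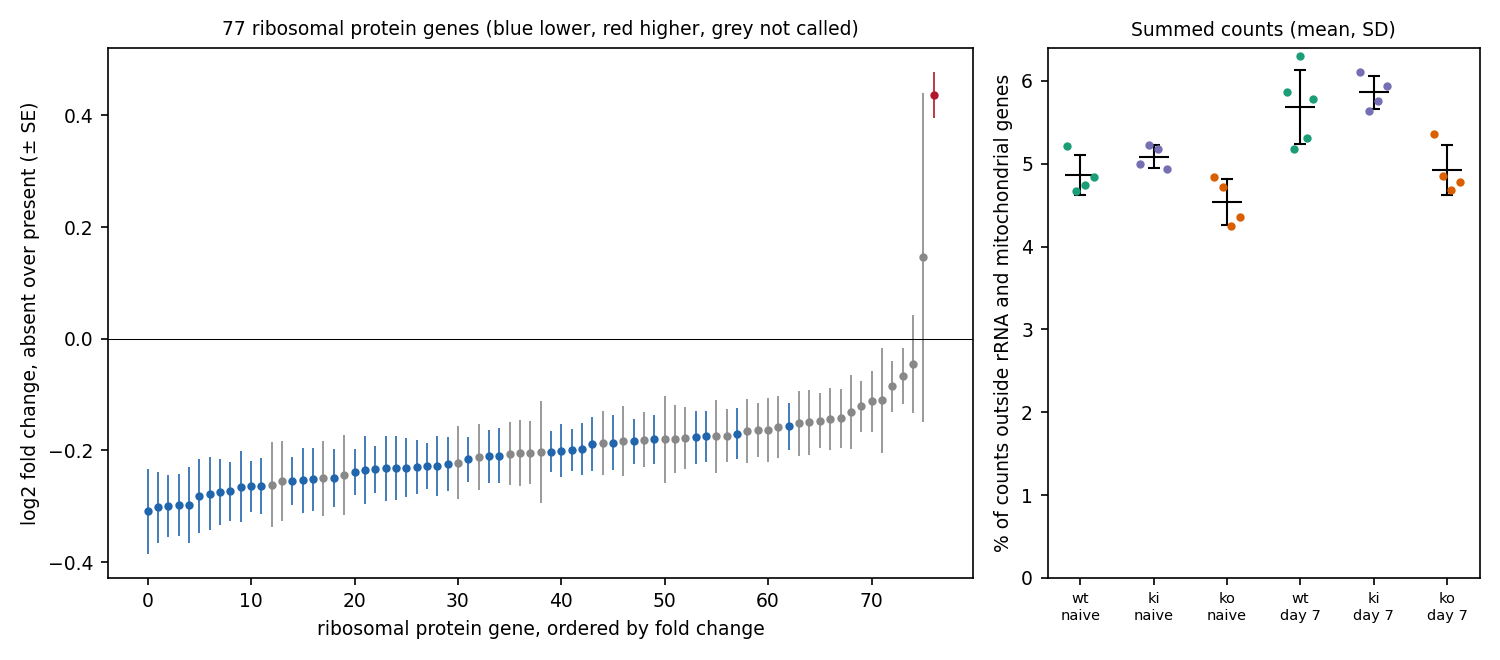
Left, the log2 fold change (absent over present, with SE) of each of the 77 ribosomal protein genes, ordered by size; 41 are called lower (blue), 1 is called higher (red) and the others are not called (grey). Right, the percent of counts outside ribosomal RNA and mitochondrial genes that the 77 genes took in each library (points), with mean and SD, in the wild-type (wt), knock-in (ki) and knock-out (ko) groups; the knock-out points run from 4.25% to 5.36%.

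Other messengers of translation went the same way. Of the 20 other TOP messengers, 7 were lower and 0 higher (35.0%, against 1.63% of all genes). All 20 had a negative log2 fold change, and the median was -0.13. Npm1, a nucleolar chaperone of ribosome assembly, fell by 0.28 (328 ± 31.9 CPM, SD, n = 8, against 401 ± 37.5, SD, n = 17; SE 0.04, adjusted p = 0.000393). Tpt1, the translationally controlled tumor protein, fell by 0.26 (1814 against 2177 CPM, SE 0.05, adjusted p = 0.00197). The elongation factors Eef1a1 (3121 against 3573 CPM, adjusted p = 0.005) and Eef2 (1463 against 1680 CPM, adjusted p = 0.0074) each fell by 0.19 (SE 0.04). The counts of called ribosomal protein genes depend on who stands for the present group and on single libraries: 25 were called without knock-out day 7 replicate 3, 26 without knock-out day 7 replicate 4, and 39 against knock-in alone, each including the 1 higher gene. Against wild-type alone 0 were called lower and 1 was called higher, with a median of -0.18. Ribosomal protein genes have many processed copies, and how shared reads were counted is not given in the sources used here.

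Genes of resting T cells held few called members. Il7r, the receptor for the survival cytokine interleukin-7, had lowest, median and highest levels of 222.6, 255 and 306 CPM in absent and 264, 333 and 398 CPM in present libraries. It fell by 0.35 (SE 0.05, adjusted p = 0.000296), with the groups apart in naive cells and overlapping at day 7. Btg1, an anti-proliferative factor of quiescent cells, fell by 0.21 (494 against 581 CPM, SE 0.05, adjusted p = 0.038), a call lost without any 1 of 14 libraries (log2 fold changes of -0.23 to -0.18). Of 20 naive and quiescent T cell genes, 0 were higher and 2 lower (10%, against 1.63% of all genes). A negative sign was found in 10 of the 20, and the median was -0.00071. The naive T cell genes Tcf7 (1178 against 1203 CPM), Lef1 (914 against 879 CPM) and Klf2 (195 against 189 CPM), chosen after their values were seen, did not pass.

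Other called lower genes had varied roles. Igsf23, an immunoglobulin superfamily gene, fell by 1.11 (2.16-fold lower, SE 0.12, adjusted p = 2.43e-06). Its lowest, median and highest levels were 5.08, 6.61 and 9.01 CPM in absent and 7.69, 15.04 and 19.1 CPM in present libraries, with 1 wild-type naive library inside the range of the absent ones. Pvr, the poliovirus receptor and ligand of CD226 and TIGIT, lies close to Igsf23 on chromosome 7 and fell by 0.33 (34.0 ± 2.74 CPM, SD, n = 8, against 42.8 ± 3.34, SD, n = 17; SE 0.05, adjusted p = 0.000511). Pde3b, a phosphodiesterase that degrades cyclic AMP, was chosen after its values were seen and fell by 0.29 (184 against 224.6 CPM, SE 0.04, adjusted p = 0.000144). Rnf32 (-0.87, SE 0.14, adjusted p = 0.000953), Cep170b (-0.69, SE 0.11, adjusted p = 0.000486) and App, the amyloid precursor protein (-0.42, SE 0.08, adjusted p = 0.00314), were called too. Map3k9, a kinase upstream of JNK (-0.54, SE 0.12, adjusted p = 0.013), was called, as was Crybg2 (-0.61, SE 0.14, adjusted p = 0.0209), whose call was lost without knock-out day 7 replicate 3 (log2 fold changes of -0.70 to -0.52 over single libraries left out). Rnf32, Cep170b, App, Map3k9 and Crybg2 all lost their calls with wild-type alone as the present group. Map3k9 and Crybg2 also lost theirs against knock-in alone, with the block on library numbers and by limma voom.

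Some named calls rested on few libraries or shared sequence. Tgtp1, an interferon-induced GTPase (-0.51, adjusted p = 0.0284), lost its call without knock-out day 7 replicate 1 or 3 or naive replicate 3 or 4. The near-identical copy Tgtp2, chosen after its values were seen, did not pass (-0.33, adjusted p = 0.215). Grm6, a glutamate receptor (-0.90, adjusted p = 0.0412), Per2, a clock gene (-0.44, adjusted p = 0.0406), and Rps27rt, a copy of a ribosomal protein gene (-0.43, adjusted p = 0.038), lost theirs without any 1 of 15, 13 and 10 libraries. Rimbp3 had the largest positive log2 fold change of the called genes with at least 5 CPM (3.52, SE 0.94, adjusted p = 0.0458). It stood at 71.7 CPM in knock-out day 7 replicate 3 against a median of 0.239 CPM over the absent libraries, and without that library its log2 fold change was -0.58. The 5S ribosomal RNA gene n-R5s136 (2.32, adjusted p = 0.0264) was at 1.09 without it, and Mir6240, annotated as a microRNA gene and tested at a median of 0.935 CPM in absent libraries (2.68, adjusted p = 0.0412), was at 1.86; neither was then called, nor without knock-out naive replicate 4 (1.95 and 1.55). Mir6240 lost its call without any 1 of 17 libraries, and Rimbp3 without any 1 of 18.

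Genes around Mir150 were examined by their distance from it. Rcn3, a calcium-binding protein of the endoplasmic reticulum that lies 29.5 kb from Mir150, rose by 1.39 (2.61-fold, 5.70 ± 1.88 CPM, SD, n = 8, against 2.17 ± 0.795, SD, n = 17; SE 0.19, adjusted p = 6.6e-05). Gm45713, a predicted gene 4.10 kb away on the other side, rose by 0.43 (67.9 ± 6.06 against 50.6 ± 4.84 CPM, SD, n = 8 and 17; SE 0.06, adjusted p = 6.6e-05). It overlaps Rpl13a on the same strand, so its counts are uncertain, and Rpl13a itself was at -0.05 (SE 0.09, adjusted p = 0.892). Fcgrt, the neonatal Fc receptor between Rcn3 and Mir150, did not pass (0.62, SE 0.20, adjusted p = 0.127). Within 1 Mb of Mir150, 4 of 71 tested genes were called (5.63%, against 1.63% of all genes), 3 higher, Rcn3 and Gm45713 among them, and 1 lower, Rpl18 (-0.20, SE 0.04, adjusted p = 0.00324). Within 5 Mb they were 4 of 107 (3.74%), within 10 Mb 4 of 130 (3.08%) and within 20 Mb 6 of 307 (1.95%), where Pou2f2, a lymphocyte transcription factor (0.35, adjusted p = 0.00821), and Spint2 (-0.24, adjusted p = 0.038, lost without any 1 of 13 libraries) joined. Between 20 and 30 Mb they were 6 of 122 (4.92%), Igsf23 and Pvr among them. On chromosome 7 as a whole 23 of 1014 genes were called (2.27%), against 1.58% of the 13689 elsewhere. How the altered alleles were made, and whether flanking sequence differs between the genotypes, was not tested.

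**Figure D3:**
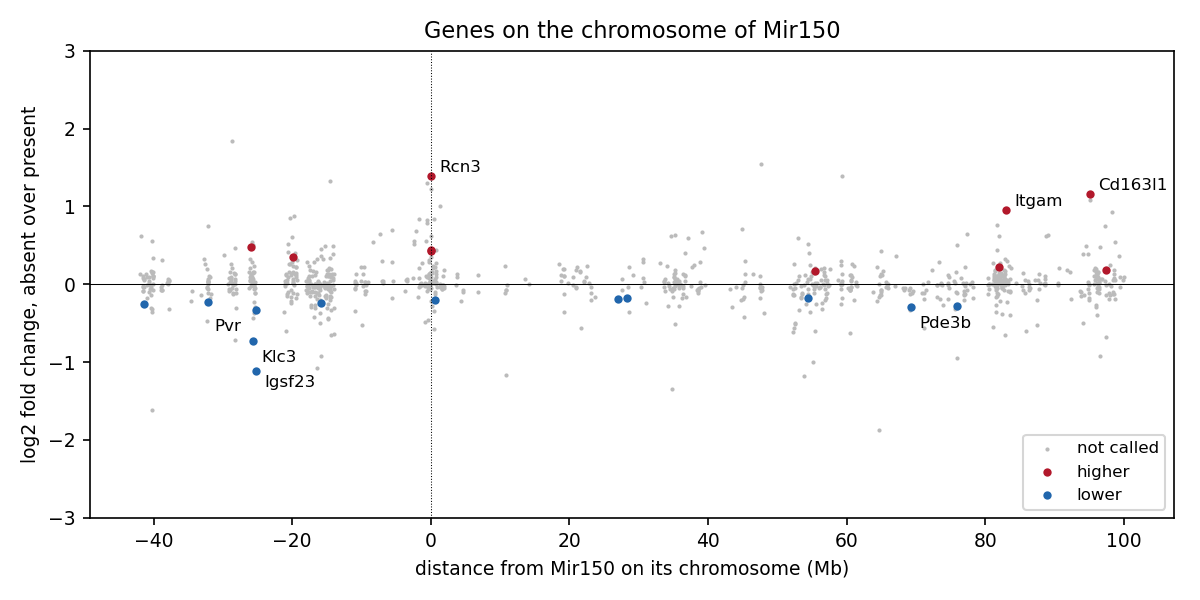
Each point is a gene on the chromosome of Mir150, with its distance from Mir150 in Mb and its log2 fold change of absent over present libraries; called genes are red (higher) or blue (lower), and Mir150 itself is off the scale. Rcn3 sits at the position of Mir150 with a log2 fold change of 1.39, and Igsf23 and Pvr lie together about 25.2 Mb away at -1.11 and -0.33.

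Reported miR-150 targets, gathered from general knowledge, were checked for a rise. Of 19 tested, 0 were called by edgeR (0.0%, against 1.63% of all genes), 12 had a positive sign, and the median was 0.02. Myb had the largest positive log2 fold change of the list. It stood at 49.3 ± 11.01 CPM in absent (SD, n = 8) and 38.2 ± 9.73 CPM in present libraries (SD, n = 17), with levels of 35.1, 46.6 and 72.8 CPM against 23.5, 39.1 and 57.3 CPM (lowest, median, highest). The groups overlapped, and the log2 fold change of 0.38 (SE 0.11) missed the threshold (adjusted p = 0.0775). Myb passed it under 2 of the 36 alternatives. Over these alternatives 0 to 2 members of the list were called, and DESeq2 called 1 higher and 1 lower. Cbl, a ubiquitin ligase that restrains T cell receptor signalling, was at 0.13 (SE 0.04, adjusted p = 0.0761), and Slc2a1, a glucose transporter, at -0.25 (SE 0.07, adjusted p = 0.0746); both were chosen after their values were seen. Foxp1, which keeps T cells quiescent (493.3 against 499.8 CPM, log2 fold change -0.02, SE 0.04, adjusted p = 0.872), and Pdcd4, a translation inhibitor (381 against 396 CPM, log2 fold change -0.06, SE 0.05, adjusted p = 0.691), were near 0. Flt3, Gab1 and Notch3 had too few counts to be tested.

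Messengers were then sorted by the sites of the miR-150-3p seed in their longest annotated 3′ UTR (GENCODE M21, mm10), in 11131 of 11217 tested protein-coding genes. An 8-base site was TGTACCAA, and a shorter site was TGTACCA or GTACCAA, each inside the 8-base site; all were searched on the messenger strand only. Of the 291 genes with an 8-base site, 6 were higher and 0 lower (2.06% higher), against 105 higher and 86 lower of 9669 genes without a site (1.09% and 0.889%). The medians were 0.0042 with an 8-base site, 0.0013 in the 1171 genes with a shorter one and 0.0033 without, while UTRs with an 8-base site were longer (median 2734 against 1025 bases). The shift of the whole class was thus within 0.01 of genes without a site. Sites of miR-150-5p, the other mature strand, were not analysed here. The values by site class therefore cover the 3p strand only and say nothing on targeting by the 5p strand.

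The 6 higher genes with an 8-base site were Slc4a7, Arhgef2, Hnrnpab, Rap1gap2, Nhsl2 and Cdan1. The sites of the first 3 by p are shown with the match in capitals. That of Slc4a7 lies at chr14:14797675-14797704 (plus), that of Arhgef2 at chr3:88647470-88647499 (plus) and that of Hnrnpab at chr11:51601323-51601352 (minus), in mm10, each the only 8-base site of its UTR.
Slc4a7: attctaaacaaTGTACCAAttaatgtaatt
Arhgef2: ttttttgttttTGTACCAAagccaaccaca
Hnrnpab: gaacacaattaTGTACCAAatttaacttgg
Arhgef2, a microtubule-bound activator of RhoA, rose by 0.19 (171 ± 12.3 CPM, SD, n = 8, against 149.9 ± 6.66, SD, n = 17; SE 0.04, adjusted p = 0.0047). Hnrnpab, an RNA-binding protein, rose by 0.21 (231 against 199.5 CPM, SE 0.05, adjusted p = 0.0275), a call lost without knock-out naive replicate 1, 2 or 3 or day 7 replicate 4. Rap1gap2, Nhsl2 and Cdan1 lost their calls without any 1 of 6, 8 and 19 libraries.

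The other lists held few called genes, where 1.63% of all genes were called. 0 of 13 Th17, 6 Th2, 15 regulatory T cell, 13 follicular helper, 40 cell cycle, 21 glycolysis and nutrient uptake, 14 BCL2 family, 22 PI3K, Akt and Foxo, 13 chemokine receptor, 17 microRNA machinery and 25 immediate early and heat shock genes were called by edgeR. Of 24 genes of the T cell receptor and its proximal signalling, 1 was called higher: Cd5, an inhibitory coreceptor whose level follows the strength of receptor signals (0.17, SE 0.04, adjusted p = 0.0288), lost without knock-out day 7 replicate 1 or 3 or naive replicate 3 (lowest log2 fold change 0.14). Of 36 respiratory chain genes, 1 was called higher: Ndufb8, of complex I (0.33, SE 0.08, adjusted p = 0.0319), lost without knock-out day 7 replicate 1 or 3, knock-out naive replicate 2 or knock-in naive replicate 2. Of 36 interferon-stimulated genes, Tgtp1 alone was called, and their median was 0.26 in naive and -0.25 in day 7 cells. Of the immediate early and heat shock genes, the abundant chaperones Hspa8 (-0.29, SE 0.09, adjusted p = 0.0783) and Hsp90aa1 (-0.28, adjusted p = 0.125) did not pass. B cell markers (0 of 19; median -0.18, between -0.62 and 0.04 without single libraries, with 0.55 in naive and -0.78 in day 7 cells) and erythroid markers (0 of 5) held none.

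Both genotypes with miR-150 were also set against the knock-out separately, in 1 fit that shares the knock-out libraries between them. Against wild-type edgeR called 26 genes (0.177%), 13 higher and 13 lower. Against knock-in it called 113 higher and 104 lower (1.48% in all). Between knock-in and wild-type it called 0 (469 at an unadjusted p under 0.05; DESeq2 and limma voom also called 0, and edgeR without the filter on low counts called 17). Of the 239 genes called in the average, 24 were also called against wild-type and 165 against knock-in. The next values are of genes that kept their call under all 36 alternatives, a choice that favours like values in both comparisons. Itgb1 was at 0.64 against wild-type and 0.74 against knock-in, Ahnak at 0.64 and 0.72, and Il7r at -0.32 and -0.38. Igsf23 was at -0.97 and -1.24, Cdc25b at 0.73 and 0.86, and Rcn3 at 1.23 and 1.57. For the ribosomal protein genes the median was -0.18 against wild-type, where 1 was higher and 3 lower, and -0.23 against knock-in, where 1 was higher and 38 lower. Knock-in against wild-type the median was 0.06, with 0 called, while 69 of the 77 had a positive and 8 a negative log2 fold change. Mtss1, an actin-binding protein chosen after its values were seen, was at 0.27 (adjusted p = 0.421) against wild-type and 0.65 (adjusted p = 0.00177) against knock-in. In the average it was at 0.44 (SE 0.11, adjusted p = 0.0343), a call lost without any of the 4 naive knock-out libraries or without knock-out day 7 replicate 1 or 4. Ccr2, a chemokine receptor (1.24, adjusted p = 0.0359), and Jun, a subunit of AP-1 (-1.05, adjusted p = 0.0202), were called against knock-in and not in the average.

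Whether absence acted differently in naive and day 7 cells was tested as an interaction between stage and absence. There edgeR called 0 genes (1409 at an unadjusted p under 0.05), limma voom 0 and DESeq2 2. These were Fosl2, an AP-1 factor with edgeR log2 fold changes of 0.39 in naive and -0.43 in day 7 cells, and Gm9754, with 0.48 and -0.73; both were chosen after their values were seen. All 239 called genes had the same sign at both stages, which the choice of genes by their average favours. Among them 19 had an unadjusted interaction p under 0.05. Ccdc141 was one, with log2 fold changes of 0.43 in naive and 1.34 in day 7 cells (unadjusted p = 0.0051), and Map3k9 another, with -0.29 and -0.79 (unadjusted p = 0.026). Itgb1 (0.58 and 0.79), Igsf23 (-1.08 and -1.13) and Rcn3 (1.46 and 1.31) changed by like amounts.

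**Figure D4:**
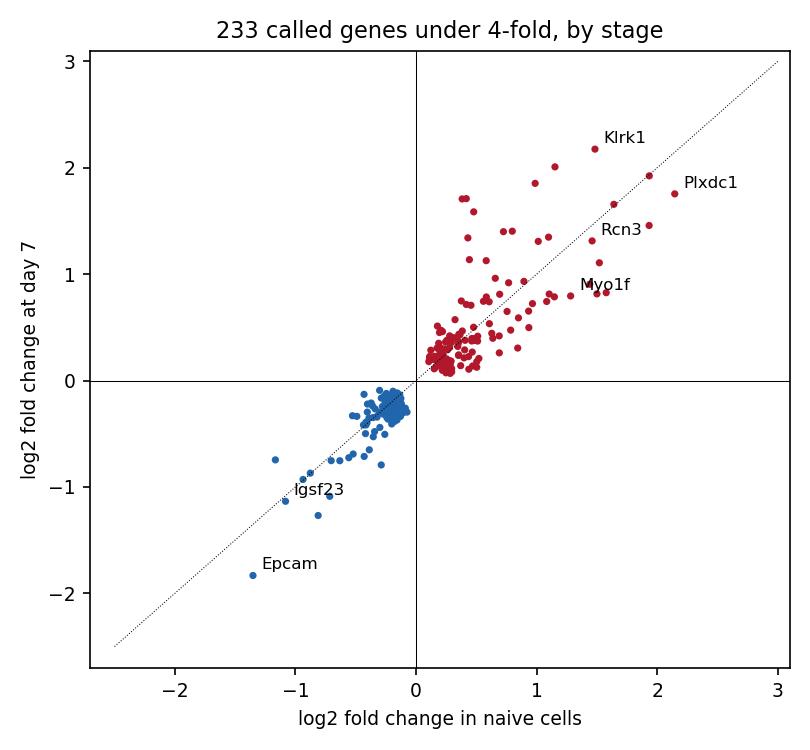
The log2 fold change of absent over present libraries in naive cells (horizontal) and at day 7 (vertical) for the 233 called genes under 4-fold; the dotted line marks equal changes. Points lie only in the quadrants of equal sign, higher in red and lower in blue, as the choice by the average favours.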

How the data were processed

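Total RNA of 25 libraries of sorted CD4 T cells was sequenced in paired reads with a stranded kit, per the labels' protocols. The authors deposited 1 table of raw counts for 46078 genes, in whole numbers with no normalization. The submitters' processing notes name mm10 and DESeq2, while no source used here states the aligner, counter, strand setting or annotation. Columns were matched to libraries by title, and groups came from the genotype and stage labels. Gene symbols (45229 genes) and positions came from GENCODE M21 on mm10, and miRNA and promoter sequences from RefSeq (GRCm38.p6). A sequence entry was found for miR-150-3p and for 9434 promoters of tested genes.

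Counts were scaled by TMM and filtered by edgeR's filterByExpr over the 6 groups (minimum count 10, minimum total 15), which left 14703 genes. edgeR's quasi-likelihood test (edgeR 4.0.16, R 4.3.3) was fitted with stage and absence of miR-150 as terms. Separate fits held the interaction, and genotype with stage. Tests were two-sided, with Benjamini-Hochberg adjustment over all tested genes and a threshold of 0.05. Levels are TMM-scaled CPM, and list values are counts and medians from the same fit. Within groups, each pair of libraries differed by more than sampling noise. The test was checked on simulated data first.

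Alternatives were RLE scaling, DESeq2 1.42.0, limma voom 3.58.1 with quality weights, filters, covariates and blocks of library numbers, wild-type or knock-in alone as the present group, and each library left out. Named genes were Mir150, Myb, the 12 largest called changes in each direction at 5 CPM or more with knock-out on 1 side of both other genotypes at both stages, the 6 called genes nearest Mir150, 8-base site genes, up to 4 called members of each list, and the largest calls of the genotype contrasts. Some named genes are not reported here. Members, lists and rule were chosen with earlier results of these data known.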

Additional observations from a re-analysis of the deposited data

Results flagged for a closer look

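For 104 genes, the 8 absent libraries were checked for 1 that lay far from the rest, as log2(CPM + 0.5) minus the mean of the present libraries of the same stage. In 7 genes the gap to the nearest other library, as a share of the whole range, passed the limit of 0.526 that holds for 8 libraries, and chance gives about 1 in 20. Rimbp3 was at 5.91 in knock-out day 7 replicate 3, with the nearest other library at 1.21. Itgb1 was at 1.33 in knock-out day 7 replicate 2, with the nearest other at 0.733 and a median of 0.602. E2f2, a cell cycle transcription factor called higher in the average (0.51, adjusted p = 0.00664), was at -0.0942 in knock-out day 7 replicate 3, with the nearest other at 0.438. The other 4 were in knock-out naive replicate 3. There Rpl13a stood at 0.537 (nearest other 0.0782) and Spn, the sialophorin CD43, at 0.490 (nearest other 0.248). Rpl10 stood at -0.818 (nearest other -0.430) and Rps26 at -0.997 (nearest other -0.441), both ribosomal protein genes with medians of -0.216 and -0.233.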

How the results depend on the processing

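Of 94 named called genes, 94 kept their call with RLE scaling, 92 with DESeq2, 74 with limma voom, 63 against knock-in alone, 53 with sets of 4 library numbers as a block and 14 against wild-type alone. Mir150, Rcn3, Igsf23, Gm45713, Itgb1, Ahnak, Il7r, Cdc25b, Slc4a7, Dglucy, Nfe2l2 and Pde3b kept theirs under all 36 alternatives. The called genes of the average numbered 107 with the block and 15 against wild-type alone, 179 against knock-in alone, and 145 to 276 with 1 library left out; the cause was not tested. Knock-out against wild-type called 94 genes by DESeq2, 17 by limma voom and 128 without the filter on low counts, and 16 to 40 with 1 library left out. Knock-out against knock-in called 332 without the filter, and 144 to 243 with 1 library left out. Knock-in against wild-type called 17 without the filter, and the interaction 2 by DESeq2. With 1 library left out, Rimbp3 ran from -0.58 (adjusted p = 0.934, without knock-out day 7 replicate 3) to 4.02. No paired analysis was possible because the labels give no shared replicate numbers; the block rests on library numbers whose meaning the labels do not state. Depth limits low genes most, since wild-type naive libraries held only 6024043 to 9351180 counts.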
